A study of Mus musculus with 4 samples.

Results

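The Slc15 genes Slc15a1, Slc15a2, Slc15a3 and Slc15a4 encode the proton-coupled transporters of short peptides, and are described here in regulatory T cells (Tregs) of the mouse liver. They were found by symbol (SLC15A1, SLC15A2, SLC15A3 and SLC15A4 as the table writes them) and are 4 of the 24452 genes in the deposited table. The family was chosen by the CPM values of Slc15a2 in this same table, already known to be lower in the knockout libraries, so the levels of its members are given as a description, without a test. Tregs, the Foxp3-bearing CD4 T cells that keep other immune cells in check, came from young animals. The genotypes were Altre-WT (2 RNA-sequencing libraries) and Altre-KO (2 libraries), 4 in all. Altre is a long non-coding RNA of Tregs, and the labels name it as the gene knocked out. Strain, sex, exact age, the kind of deletion, the sort and the number of mice behind a library are not given in the labels. The spread between the 2 libraries of a genotype may therefore be technical.

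Members of the Slc15 family carry dipeptides and tripeptides across a membrane together with protons, which flow down their gradient. Slc15a1 (PEPT1) and Slc15a2 (PEPT2) work at the cell surface, the former best known from the intestine and the latter, of higher affinity, from kidney and brain. Slc15a3 (PHT2) and Slc15a4 (PHT1) sit in endosomes and lysosomes, carry histidine as well as peptides, and are best known from myeloid cells, B cells and plasmacytoid dendritic cells, where Slc15a4 serves Toll-like receptor signalling. Family members can also pass fragments of bacterial cell wall that the cytosolic receptors Nod1 and Nod2 sense.

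In GRCm38 with the GENCODE M21 annotation, the members lie on 4 chromosomes. Slc15a2 (ENSMUSG00000022899.9) is on the minus strand of chromosome 16, from 36750177 to 36784962, and Slc15a1 (ENSMUSG00000025557.10) on the minus strand of chromosome 14, from 121459621 to 121505252. Slc15a4 (ENSMUSG00000029416.17) is on the minus strand of chromosome 5, from 127595664 to 127632897, and Slc15a3 (ENSMUSG00000024737.2) on the plus strand of chromosome 19, from 10839727 to 10859362. All are protein-coding. The longest transcripts of the surface pair, Slc15a1 and Slc15a2, aligned over 1105 bases with 64.2% identity, and those of Slc15a3 and Slc15a4 over 230 bases with 68.3% identity. No other gene's transcript matched that of Slc15a1 or Slc15a2 at 90% identity over at least 50 bases. Slc15a4 had such matches to 118 genes. The longest, over 390 bases, was with Gm43474, which overlaps Slc15a4 on the other strand and is not among the listed genes. Slc15a3 had 1 such match, over 1529 bases at 100% identity, with Tmem132a, which overlaps it on the other strand. Reads of Slc15a3 and Slc15a4 are thus less certain to be their own.

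The 250 bases before the RefSeq start of the surface transporters are shown because Slc15a2 carries the difference described next and Slc15a1, the other surface transporter, was listed at 0. They are from GRCm38.p6, minus strand, at chr16:36784963-36785212 for Slc15a2 and chr14:121505255-121505504 for Slc15a1. Capitals mark matches to any of 10 motifs, searched on both strands.
Slc15a2: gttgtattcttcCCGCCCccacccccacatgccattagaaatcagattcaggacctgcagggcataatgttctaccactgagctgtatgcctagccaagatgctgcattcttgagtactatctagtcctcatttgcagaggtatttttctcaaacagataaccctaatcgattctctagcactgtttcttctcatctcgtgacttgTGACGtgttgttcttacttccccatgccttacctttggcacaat
Slc15a1: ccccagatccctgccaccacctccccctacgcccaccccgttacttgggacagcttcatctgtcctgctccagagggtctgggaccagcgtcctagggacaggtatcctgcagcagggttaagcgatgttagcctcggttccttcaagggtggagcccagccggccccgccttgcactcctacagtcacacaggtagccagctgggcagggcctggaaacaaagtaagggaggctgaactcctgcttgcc
The Slc15a2 sequence was 45.2% G and C with 4 CpG dinucleotides, and that of Slc15a1 62% with 7, against a median of 52.4% over 32841 promoters of the same length. Slc15a2 held 1 GC box (GGGCGG, in 32.7% of all promoters), beginning 238 bases before the start, and 1 core of the cyclic AMP element (TGACG, in 17.8%), 44 bases before it, and these do not overlap. Slc15a1 held none of the 10. Neither held the Yy1 core AANATGGC (3.91% of promoters), the CCAAT box CCAAT (33.9%), the E-box CACGTG (6.02%), the heat-shock element core GAANNTTC (6.70%), the AP-1 site TGANTCA (6.75%), the TATA box TATAAA (12.4%), the forkhead site TGTTTAC (3.17%) or the Stat site TTCNNNGAA (7.02%). A match is a run of letters and not a bound site, and the absence of one says nothing of the factor.

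The unit of level is CPM, reads per 1000000 reads on the listed genes of a library. A read was worth 0.547 and 0.420 CPM in wild-type replicates 1 and 2, and 0.306 and 0.423 CPM in knockout replicates 1 and 2. Estimated reads on listed genes ran from 1828771 to 3266125 per library, and knockout replicate 1 stood apart with 32.8% of its library total on listed genes, against 18.8% to 21.5% in the others. The 8 markers of T cells and Tregs summed to 3331 to 3422 CPM in every library, Ikzf2 being the most abundant. Single markers varied more than this sum. The lowest Foxp3 value, 79.5 CPM, belonged to knockout replicate 1. The other libraries held 162 CPM (knockout replicate 2), 160 CPM (wild-type replicate 1) and 140 CPM (wild-type replicate 2) of Foxp3. Il2ra and Cd3e were also lowest in knockout replicate 1 (164 and 53.9 CPM), while Cd3d and Cd3g were highest there (241 and 659 CPM). Their link to the Slc15a2 level was not tested. The hepatocyte markers summed to 1.22 to 5.92 CPM, with Alb, Ttr and Fgb listed at 0 throughout.

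Slc15a2, the high-affinity surface transporter, was the member with the highest level per kb in wild type and the only member whose genotypes did not overlap. It was at 68.9 and 82.4 CPM in wild-type replicates 1 and 2, and at 1.84 and 22.4 CPM in knockout replicates 1 and 2. Both knockout libraries thus lay below both wild-type libraries, and the lower wild-type value was 3.07 times the higher knockout value. The means were 75.6 ± 9.54 and 12.1 ± 14.6 CPM (SD, n = 2 libraries each), the knockout mean being 6.23-fold lower. The knockout libraries differed 12.2-fold from each other, so the direction is shared by both and the size is not. The log2 difference was -3.23 (log2(CPM + 1) scale, knockout minus wild type), against a median of -0.01 over the 10486 genes that passed the filter on low values, and the authors' deposited table gives -2.64 as the log2 of the ratio of its mean CPM. Groups that do not overlap with the knockout lower were found for 16.1% of those genes, and as the choice of the family used this contrast, nothing is read from it.

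The reads behind Slc15a2 were whole numbers, 126 and 196 in wild type and 6 and 53 in knockout. Exact Poisson 95% intervals, which cover counting error only, ran from 57.4 to 82.0 and from 71.3 to 94.8 CPM in wild type. In knockout they ran from 0.674 to 3.998 CPM in replicate 1 and from 16.8 to 29.4 CPM in replicate 2. The intervals of the knockout libraries are apart, so their difference exceeds counting error, while those of the wild-type libraries overlap. The absolute log2 difference between the knockout libraries was 3.05 for Slc15a2, against a median of 0.27 over all tested genes, and 4 of the 10486 genes, Slc15a2 among them, differed that much. Between the wild-type libraries it was 0.25, against a median of 0.24.

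**Figure D1:**
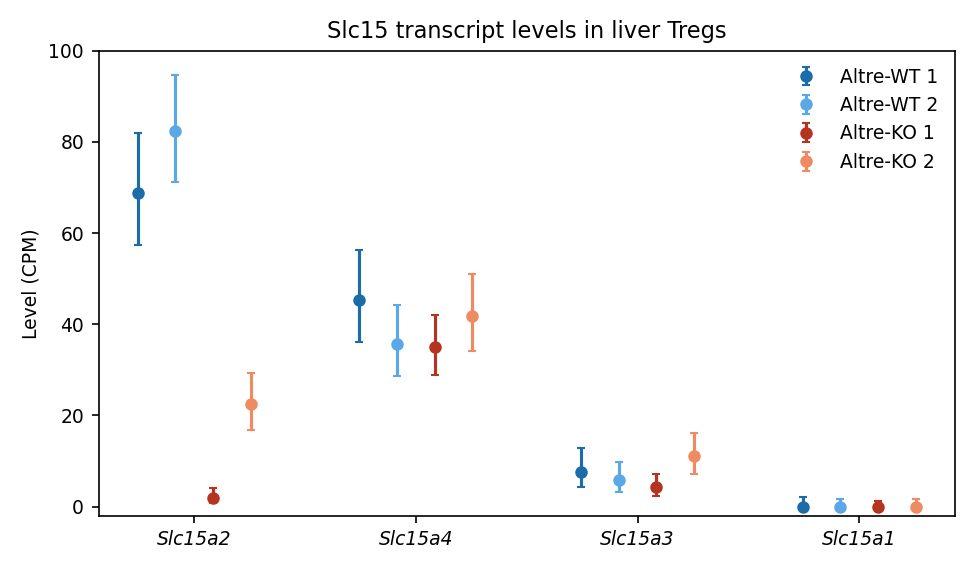
Level in CPM (vertical axis, linear) of each Slc15 gene in the 4 libraries, 2 Altre-WT and 2 Altre-KO; points are libraries and bars exact Poisson 95% intervals of the reads. Slc15a2 is at 68.9 and 82.4 CPM in the wild-type pair and 1.84 and 22.4 in the knockout pair, while the genotypes overlap for Slc15a4 and Slc15a3 and Slc15a1 is at 0.

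Slc15a4, the lysosomal histidine and peptide transporter, was at overlapping levels. It was at 45.4 and 35.7 CPM in the wild-type pair and 34.9 and 41.9 in the knockout pair, on 83, 85, 114 and 99 reads. The genotypes overlapped, and the means were 40.6 ± 6.83 and 38.4 ± 4.96 CPM (SD, n = 2 each), with a log2 difference of -0.07. Its single-library intervals, from 36.1 to 56.3 CPM in wild-type replicate 1 and from 28.8 to 41.9 CPM in knockout replicate 1, overlap as well. The difference is smaller than the spread between libraries of a genotype, whose pooled SD was 0.21 on the log2 scale. On the log2 scale, the differences between replicates were 0.34 in wild type and 0.26 in knockout.

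Slc15a3, the second endolysosomal member, was low and varied with the knockout library. It was at 7.66 and 5.89 CPM in the wild-type pair and 4.29 and 11.0 in the knockout pair, on 14, 14, 14 and 26 reads. The wild-type values lay between the knockout values, and the log2 difference was 0.05 with a pooled SD of 0.61. The intervals of knockout replicate 1 (2.34 to 7.19 CPM) and replicate 2 (7.191 to 16.1 CPM) meet at their ends. Markers of macrophages and Kupffer cells, in which Slc15a3 is also expressed, summed to 210.0 and 307 CPM in wild type and to 308.0 and 182 CPM in knockout over 9 of 11 markers above 0, Vsig4 and Marco being listed at 0. That sum was higher in the knockout library with less Slc15a3, and its part in the Slc15a3 level was not tested. Slc15a3 overlaps the oppositely oriented Tmem132a over 1541 bases. Tmem132a was at 1.09 and 0.84 CPM in the wild-type pair and 2.45 and 2.54 in the knockout pair. Whether counting used strand is not given in the sources used here, so reads of this pair cannot be told apart.

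Slc15a1, the intestinal surface transporter, was listed at 0 in all 4 libraries. A count of 0 allows up to 1.64 and 1.26 CPM in wild type and up to 0.919 and 1.27 CPM in knockout, taking 3 reads per library as the limit. No fold is given, and Slc15a1 did not pass the filter, which the other 3 members did. It was thus not detectable at this depth in either genotype.

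Compared per kb of annotated exons, Slc15a2 and Slc15a4 were the leading members in wild type, and Slc15a4 led in knockout. In wild type, Slc15a2 was at 9.36 and 11.2 CPM per kb, Slc15a4 at 8.54 and 6.73 and Slc15a3 at 1.40 and 1.07. The order of the first pair was the same in both wild-type libraries, although in replicate 1 the values lay close, while Slc15a3 was far below both. In knockout, Slc15a4 was at 6.57 and 7.89 CPM per kb, Slc15a2 at 0.250 and 3.05 and Slc15a3 at 0.781 and 2.01. The order of Slc15a2 and Slc15a3 thus differed between the knockout libraries. Slc15a2 made up 48.5% and 58.9% of the summed Slc15 level per kb in wild type and 3.29% and 23.6% in knockout. The share of Slc15a4 was 44.3% and 35.4% in wild type and 86.4% and 61.0% in knockout, a higher share at a similar level of its own. In CPM, the 3 paralogues of Slc15a2 summed to 53.0 and 41.6 in wild type and to 39.2 and 52.9 in knockout, and these ranges overlap.

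**Figure D2:**
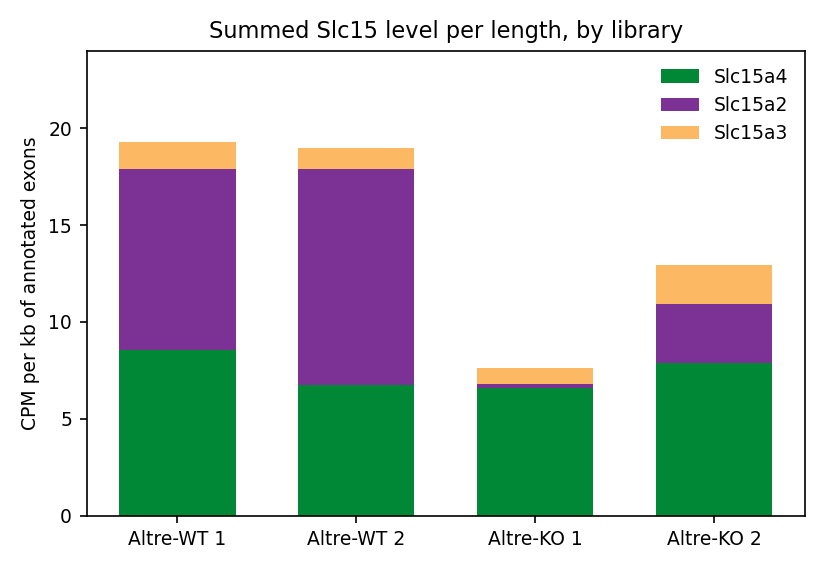
Stacked bars of the level of Slc15a4, Slc15a2 and Slc15a3 in CPM per kb of annotated exons (vertical axis from 0) in each of the 4 libraries; Slc15a1 is at 0. The stack reaches 19.3 and 18.99 CPM per kb in wild type and 7.60 and 12.9 in knockout, and the Slc15a4 part lies between 6.57 and 8.54 throughout.

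The size of the Slc15a2 difference rested on which knockout library was used. Without knockout replicate 1 the log2 difference was -1.70, and without knockout replicate 2 it was -4.75. Leaving out a wild-type library moved it less, to -3.35 without replicate 1 and -3.10 without replicate 2. It remained below 0 in each of these fits, which was fixed in advance, as both knockout values lay below both wild-type values. For Slc15a4 the same fits gave 0.10 and -0.24 without a wild-type library and 0.06 and -0.20 without a knockout library, so its sign depended on the library left out. Slc15a3 ranged from -0.55 without knockout replicate 2 to 0.64 without knockout replicate 1.

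**Figure D3:**
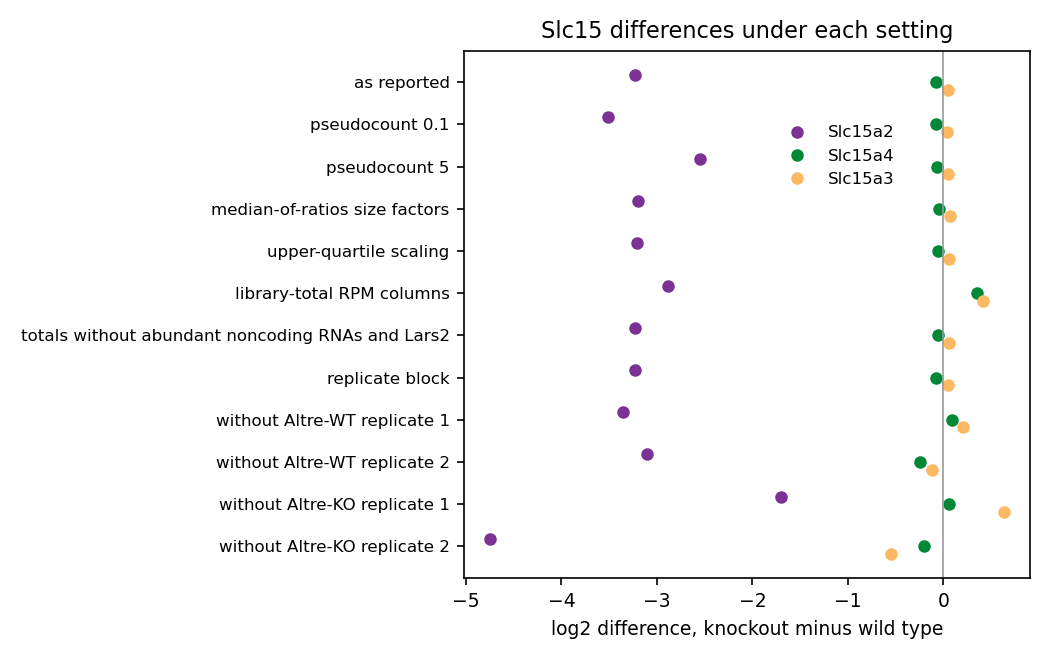
Log2 difference (horizontal axis, knockout minus wild type) of Slc15a2, Slc15a4 and Slc15a3 as reported and under 11 alternative settings (rows). Slc15a2 lies between -4.75 and -1.70 in all rows, while both paralogues lie on either side of 0.

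On the CPM scale, weakly detected genes as a whole were also lowest in knockout replicate 1, then in knockout replicate 2, as Slc15a2 was. CPM is scaled to the listed genes, which held 32.8% of the library total in knockout replicate 1 against 18.8% to 21.5% in the others. The sum of weak genes was not taken on library totals, where its order need not be the same. The 13966 genes below the filter summed to 10526 and 10038 CPM in wild type, 5527 CPM in knockout replicate 1 and 7709 CPM in knockout replicate 2. Knockout replicates 1 and 2 thus held 53.8% and 75.0% of the wild-type mean of that sum, and 2.43% and 29.7% of the wild-type mean of Slc15a2. What part the lower sum of weak genes has in the Slc15a2 difference was not tested. Among the marker lists of other cells, the sums for cholangiocytes (bile duct cells) and for CD8 T and NK cells were also lower in both knockout libraries. Cholangiocyte markers, 5 of 6 above 0 with Krt7 listed at 0, summed to 27.9 and 20.6 against 19.3 and 17.4 CPM. Epcam, the most abundant of them, was at 15.3 and 13.4 against 16.5 and 15.7 CPM, higher in both knockout libraries, and the others summed to 12.6 and 7.14 against 2.75 and 1.69 CPM. CD8 T and NK cell markers, 7 of 7 above 0, summed to 44.3 and 43.3 against 38.0 and 27.1 CPM. Endothelial and stellate cell markers, 8 of 8 above 0, overlapped in sum, at 189 and 223 against 175 and 212 CPM, with Pecam1 making up most of it. Without Pecam1 the other 7 summed to 16.9 and 7.56 against 1.54 and 3.81 CPM. Only the sinusoidal receptor gene Stab2 among them did not overlap, at 6.02 and 5.04 against 0.92 and 1.27 CPM (limma adjusted p = 0.999). It passed the filter through its wild-type values only. Lyve1, Kdr, Col1a1, Col3a1, Dcn and Lrat overlapped between genotypes. Dendritic cell markers overlapped in sum, and without the most abundant, Zbtb46, were at 12.0 and 20.2 against 8.26 and 6.36 CPM. Of these, Xcr1, Cd209a and Siglech did not overlap between genotypes, while Itgax, Clec9a, Flt3 and Batf3 did. Leaving out the most abundant marker was chosen after the values were seen. The same step left overlapping sums for macrophages and Kupffer cells, at 108 and 153 against 143 and 116 CPM. B and plasma cell markers overlapped as well, at 41.6 and 33.6 against 38.3 and 29.6 CPM. So did those of hepatocytes and neutrophils, at 1.69 CPM or less in every library. CD8 T and NK cell markers without Prf1 stayed lower in sum, at 27.9 and 26.9 against 21.1 and 16.9 CPM. Only Cd8b1 (7.11 and 8.83 against 5.82 and 4.66 CPM) and Klrk1 (4.92 and 12.6 against 3.67 and 2.54 CPM) did not overlap. Klrk1 passed the filter through its wild-type values only. Cd8a, Ncr1, Klrb1c, Eomes and Prf1 overlapped between genotypes. The part of these cell types in the Slc15a2 difference was not tested. In bulk RNA, fewer cells with the transcript and less transcript per cell cannot be told apart.

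The genes with the most similar course over the 4 libraries were all weakly expressed. Likeness was the Euclidean distance between log2(CPM + 1) profiles centred on their own mean, over 4 libraries only, and the Slc15a2 profile itself has a length of 3.88 on that scale. The nearest was Dnase1l3, a secreted DNase, at a distance of 1.48, with 7.11 and 6.73 CPM in the wild-type pair and 0 and 3.39 in the knockout pair. Next were the protocadherin gene Pcdh17 (1.62), the Wnt receptor gene Fzd3 (1.64), the connexin gene Gjb2 (1.66) and Amer2 (1.72), a regulator of Wnt signalling. None of the 5 exceeded 17 reads in any library, and each was at 1 read or fewer in knockout replicate 1. All 5 passed the filter through their wild-type values only and were picked for likeness. Their lower knockout values are thus no support for the Slc15a2 difference.

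Genes beside Slc15a2 on chromosome 16 were mostly lower in knockout, with log2 differences from -1.66 to 0.44. Of 36 listed genes within 1 Mb, 19 were tested, of which 16 were lower than in wild type and 3 higher, with a median log2 difference of -0.23 against -0.01 over all genes tested, of which 52.1% were lower and 47.9% higher. In 11 of the 19 both knockout libraries lay below both wild-type libraries, against 16.1% of all tested genes, and in 2 they lay above, against 14.7%. By limma with Benjamini-Hochberg adjustment over all tested genes none of the 19 passed an adjusted p of 0.05 (1 at an unadjusted p under 0.05, and 0 by limma-voom), where 0.0381% of all tested genes passed, all of them lower. The nearest protein-coding genes were Ildr1, a tight-junction receptor gene, 23372 bases to one side, at 9.84 and 9.25 CPM in the wild-type pair and 7.04 and 6.35 in the knockout pair, and Eaf2, an elongation factor gene, 7921 bases to the other, at 0.55 and 3.36 CPM against 0 and 0.85 CPM. Eaf2 was below the filter. The shared direction around Slc15a2 was known from earlier results of this table, and is no independent support for the gene's own difference.

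Lower values were also the more frequent around Slc15a1 and Slc15a3, as they were over all tested genes (52.1%). The surroundings were not tested against each other. Around Slc15a1, 7 of 10 tested genes were lower with a median of -0.10, which was -0.17 without wild-type replicate 1 and -0.04 without knockout replicate 2. In 2 of the 10 (20%) both knockout libraries lay below both wild-type libraries, and in 0 above, against 16.1% and 14.7% of all tested genes. Around Slc15a3, 18 of 29 were lower with a median of -0.03, which was -0.08, -0.11 and -0.16 without wild-type replicate 1, wild-type replicate 2 and knockout replicate 1. There 9 of the 29 (31.0%) had both knockout libraries below both wild-type libraries, against 16.1% of all tested genes. In 3 of the 29 they lay above, against 14.7%. Around Slc15a4 none of the 8 listed genes was tested. None passed by limma (1 around each of Slc15a1 and Slc15a3 at an unadjusted p under 0.05, and 0 by limma-voom). Around Slc15a3 that gene was Tkfc, at 7.66 and 6.73 CPM in the wild-type pair and 1.22 and 2.96 in the knockout pair. Tkfc passed the filter through its wild-type values only, and is among the 9 of 29 above. Next to Slc15a1, the kinase gene Stk24 was at 172 and 177 CPM in the wild-type pair and 175 and 188 in the knockout pair, and Dock9, an activator of Cdc42, at 77.7 and 64.7 CPM against 64.6 and 67.3 CPM. Next to Slc15a3, the T cell surface receptor gene Cd6 was at 581 and 553 CPM in the wild-type pair and 503 and 461 in the knockout pair (log2 difference -0.23, SE 0.14, limma adjusted p = 0.999). The genes beside Slc15a4, Tmem132c and Glt1d1, were at 3.28 CPM or less in every library. Glt1d1 overlaps Slc15a4 by 636 bases on the other strand and was above 0 in wild-type replicate 2 only.

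**Figure D4:**
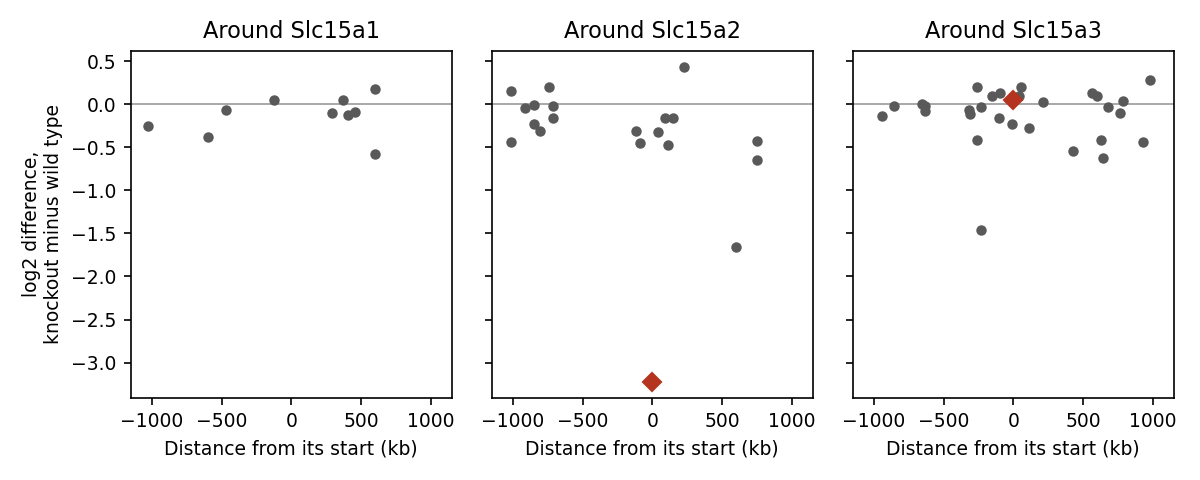
Log2 difference (vertical axis, knockout minus wild type) of each tested gene within 1 Mb of Slc15a1, Slc15a2 and Slc15a3, against the distance of its start from that of the member in kb; grey points are neighbours and red diamonds the member where tested. Around Slc15a2, 16 of 19 neighbours lie below 0, none as low as Slc15a2 at -3.23.

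Other genes of peptide transport and use did not pass the test in either direction. Over 6 lists, chosen with earlier results of these data known, 92 genes were tested, 47 lower and 45 higher, with a median log2 difference of -0.0049 and a range from -0.65 to 0.88. None passed a limma adjusted p of 0.05 (3 at an unadjusted p under 0.05, and 0 by limma-voom), where 0.0381% of all tested genes did. The genotypes did not overlap for 30 of the 92, or 32.6%, against 30.8% of all tested genes, a share near the background.

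Among other peptide transporters, 4 of 7 were tested, with a median of 0.04 that ran from -0.12 without knockout replicate 1 to 0.13 without knockout replicate 2. Tap1, a subunit of the pump that feeds peptides to MHC class I, was at 579 and 541 CPM in the wild-type pair and 639 and 526 in the knockout pair. Abcb9, the lysosomal peptide pump, was at 73.3 and 60.1 CPM against 51.7 and 46.6 CPM (log2 difference -0.43, SE 0.22, limma adjusted p = 0.999), with both knockout values below both wild-type values. Slc46a3, a lysosomal transporter linked to muropeptides, was at 19.1 and 14.3 CPM against 17.4 and 22.0 CPM. The fifth family gene Slc15a5, an orphan outside the 4 members, was at 0 in 3 libraries and at 0.61 CPM in knockout replicate 1.

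Genes of proton supply for such transport had members on both sides of 0. Of 8 tested genes, 3 were lower and 5 higher, with a median of 0.04, which was -0.0059 and -0.0046 without wild-type replicates 1 and 2. Besides sodium-proton exchangers and a scaffold, they held Sgk1 (0.06) and Nedd4l (0.03), which are neither and are among the 5 higher. The endosomal exchanger gene Slc9a9 was at 94.0 and 102 CPM in the wild-type pair and 76.5 and 83.4 in the knockout pair. The scaffold gene Slc9a3r1 was at 221 and 211 CPM against 233 and 218 CPM. Slc9a3, the partner exchanger of Slc15a1 in intestine, was listed at 0 in every library. Of 17 tested subunits of the vacuolar proton pump, which acidifies lysosomes, 8 were lower and 9 higher, with a median of 0.03 (-0.14 without knockout replicate 1 and -0.10 without wild-type replicate 2). Its members with the smallest p were Atp6v1a (log2 difference -0.38), Atp6v1g1 (0.35, and 0.21 without wild-type replicate 1) and Atp6v0a2 (-0.21, and -0.13 without knockout replicate 1), each with an adjusted p of 0.999 by limma.

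Peptidases, which make and split the cargo, went both ways, with 10 of 19 tested members lower and a median of -0.04, which ran from -0.07 without knockout replicate 1 to 0.02 without wild-type replicate 1. Thop1, a cytosolic endopeptidase gene, was at 15.9 and 7.15 CPM in the wild-type pair and 23.9 and 17.8 in the knockout pair. Dpp4, a surface dipeptidyl peptidase gene, was at 164 and 130.3 CPM against 138 and 102 CPM, and Tpp1, a lysosomal tripeptidyl peptidase gene, at 29.0 and 31.9 CPM against 21.7 and 24.1 CPM. Cndp2, which splits dipeptides in the cytosol, had a log2 difference of -0.09. The surface peptidase genes Anpep, Enpep, Mme and Ace were below the filter.

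Sensing genes around the endolysosomal members had 14 of 18 tested members lower, with a median of -0.12, which was -0.02 without knockout replicate 1 and 0.0039 without wild-type replicate 1. Irf7, an interferon regulatory factor gene, was at 66.7 and 75.7 CPM in the wild-type pair and 51.1 and 45.3 in the knockout pair (log2 difference -0.55, SE 0.22, limma adjusted p = 0.999). The Toll-like receptor kinase gene Irak4 had a log2 difference of -0.42 (-0.20 without knockout replicate 1 and -0.64 without knockout replicate 2) and Nod1, a sensor of bacterial cell wall fragments, of -0.25. Irf5, the transcription factor that Slc15a4 serves, was at 18.1 and 35.7 CPM in the wild-type pair and 24.2 and 22.4 in the knockout pair, and 5430427O19Rik, the mouse gene of the Slc15a4 partner TASL, was below the filter at 1.64 to 4.90 CPM. Genes of lysosomal amino acid efflux and mTORC1 docking had 11 of 26 tested members lower, with a median of 0.03, which was -0.01 without wild-type replicate 1, and 0.07 and 0.08 when knockout replicates 1 and 2 were left out in turn. There, Lamtor4, a Ragulator subunit gene, was at 31.7 and 26.1 CPM in the wild-type pair and 39.8 and 49.1 in the knockout pair. The GTPase gene Rragb had a log2 difference of 0.86, which was 0.29 without wild-type replicate 1 and 1.43 without wild-type replicate 2. The lysosomal membrane gene Lamp2 had one of -0.40, which was -0.72 and -0.07 without wild-type replicates 1 and 2, its wild-type values being 58.0 and 91.6 CPM.

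**Figure D5:**
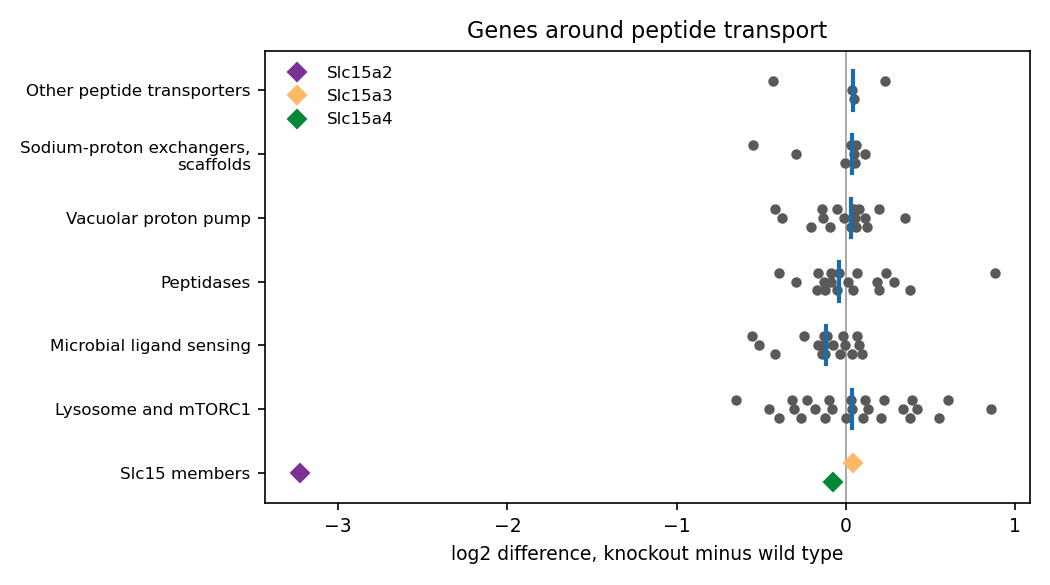
Log2 difference (horizontal axis, knockout minus wild type) of every tested gene in 6 lists around peptide transport (grey points, blue bar at the list median) and of the 3 tested Slc15 members (diamonds). List members lie between -0.65 and 0.88, Slc15a3 and Slc15a4 near 0, and Slc15a2 at -3.23.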

How the data were processed

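RNA of liver Tregs was sequenced from 2 Altre-WT and 2 Altre-KO libraries (SMARTER kit for mRNA, per the labels' protocols). Per the submitters' processing notes, STAR, cutadapt, DESeq2 and mm10 were used, the roles, versions, counter and annotation not being given in the sources used here. Of the columns of the deposited table, 4 are in RPM, reads per 1000000 of a larger library total plus 0.0001 (read from the values), and 4 in CPM, per the file headers. That CPM is scaled to the listed genes was also read from the values. The table also holds the authors' mean signal per genotype, their log2 ratio, and p-values of a test not named there, which were not used.

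What 1 read is worth was taken from the common step of the RPM values. Between 92.9% and 93.8% of values above 0 were whole reads within 0.02 of a read, so the table was not treated as counts, although all values of the members were whole. Of 24452 genes, 10486 with at least 2 libraries at 4.22 CPM (10 estimated reads at the median depth) were tested with limma 3.58.1 (R 4.3.3, variance trend) on log2(CPM + 1), with group as the only term and Benjamini-Hochberg adjustment over all tested genes. The script was tested on simulated data. Fold changes on this scale understate those of low genes. The members and lists were chosen with earlier results of these data known, and the members received no test. Named genes were the members, the 5 nearest profiles (leaving out predicted genes, clone identifiers and antigen receptor segments), the 3 members of each list with the smallest p (1 of which is not reported here), the nearest listed protein-coding gene on each side of a member, and a few others named after their values were seen (markers, Slc15a5, Slc9a3, Cndp2, Anpep, Enpep, Mme, Ace, Irf5, 5430427O19Rik, Tmem132a). Symbols, positions and exon lengths are from GENCODE M21 (23519 symbols matched). Transcripts were compared with blastn 2.17.0. Upstream sequences are from RefSeq (GRCm38.p6), where 3 of the 4 members matched, all but Slc15a3. The Slc15a4 sequence overlaps an annotated UTR and is not printed. Markers of dendritic cells (7.63 to 26.5 CPM summed), B and plasma cells (147 to 282) and neutrophils (1.10 to 2.53) were also summed.

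Alternatives were the pseudocount, scalings, the filter, limma-voom on estimated reads, each library left out, a block for the replicate number, the window and the length measure. Figures were drawn with matplotlib 3.10.9.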

Additional observations from a re-analysis of the deposited data

How the results depend on the processing

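Slc15a2 was lower in knockout under all 11 alternatives, with log2 differences from -4.75 to -1.70, the ends being without knockout replicates 2 and 1. They ran from -3.51 (pseudocount 0.1) to -2.55 (pseudocount 5) under the others outside leaving out a library. With groups that do not overlap, leaving out a library could not change the sign, so only the size is informative there. On library totals in RPM the median of all tested genes moved to 0.41. There Slc15a4 was at 0.35 and Slc15a3 at 0.41, or -0.06 and 0.00 relative to that median. Per kb of the longest transcript, the share of Slc15a3 was 4.07% in wild type and 8.44% in knockout, against 6.44% and 12.9% per kb of all exons. Leaving out a library, shares ran from 48.5% to 58.9% (Slc15a2), 5.65% to 7.23% (Slc15a3) and 35.4% to 44.3% (Slc15a4) in wild type, and from 3.29% to 23.6%, 10.3% to 15.5% and 61.0% to 86.4% in knockout. Genes past the threshold numbered 4, but 2 with a pseudocount of 0.1, 0 with no filter on low values (limma, 1305 at an unadjusted p under 0.05) and 6 to 16 without each library, with 16 without wild-type replicate 2 and 14 without knockout replicate 2. No gene of the 6 lists or beside a member passed under the scaling, pseudocount or left-out-library alternatives run for them. Of 22 such genes named with a test, Tap1 and Dock9 changed sign, each without a single library. Around Slc15a2 the median was -0.17 to -0.32 without each library and -0.32 within 500 kb.

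With the replicate number as a block, the members' log2 differences were the same (-3.23 for Slc15a2, 0.05 for Slc15a3 and -0.07 for Slc15a4). In this balanced layout a block cannot change them. With the block 6 genes passed, 5 of them lower. Same-numbered libraries deviated from their group means with a correlation of -0.01 across tested genes, and the labels do not pair them. Depth limits Slc15a1, Slc15a3 and the low knockout value of Slc15a2, which rests on 6 reads.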

Other observations

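All 5 genes whose profiles were nearest to that of Slc15a2, Dnase1l3, Pcdh17, Fzd3, Gjb2 and Amer2, are on chromosome 14, while Slc15a2 is on chromosome 16. This was noticed after their values were seen, and all 5 passed the filter through their wild-type values only. Chromosome 14 holds 365, or 3.48%, of the tested genes. Of these, 181 were lower and 184 higher in knockout, with a median log2 difference of 0.0036.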
